A study of Homo sapiens with 30 samples.

Results

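MALAT1 and NEAT1 are long noncoding RNAs that are kept in the nucleus, and the sites described here are all entries of the deposited table of edited sites that lie in exons of these genes in GENCODE 29 (GRCh38). Of 382978 sites in the table, 128 met this rule: 33 in MALAT1 and 95 in NEAT1, and the base in the RNA was adenosine at all 128. HEK 293T cells, an established human embryonic kidney line, were sequenced 60 hours after transfection with adenosine deaminase constructs, to find A-to-G changes away from the target. Such constructs are made to rewrite single adenosines of a chosen transcript, and the study's design text counts the changes in this table as off-target. Each of the 26 transfected conditions was 1 library, so no condition had a replicate, and the 4 untransfected samples were repeat runs of 1 library, of which 3 were used.

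The 22 deaminase libraries fall into 3 kinds. In 16 of them the cells carried a deaminase domain (DD) of ADAR1 or ADAR2 fused to MCP, the phage coat protein that binds MS2 hairpins, either wild type or with the activating change E1008Q (ADAR1) or E488Q (ADAR2), together called E-to-Q, with a nuclear export signal (NES) or a nuclear localisation signal (NLS), and with or without the MS2 adRNA, a guide RNA that carries MS2 hairpins. A further 4 held full-length ADAR2 or ADAR2 (E488Q), each with or without the GluR2 adRNA, a guide with the GluR2 hairpin. The last 2 held Cas13b-ADAR2 DD (E488Q) with or without its gRNA. Further controls received GFP, or 1 of the 3 guides (MS2 adRNA, GluR2 adRNA, Cas13b gRNA) with no enzyme. All cells were HEK 293T under the same culture, and the level of each transfected protein is not analysed here.

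MALAT1 gathers in nuclear speckles, compartments rich in splicing factors, and NEAT1 is the scaffold of paraspeckles, nuclear bodies built on that RNA by proteins such as NONO and SFPQ. NEAT1 is made as a short polyadenylated transcript and as a long one that ends without a poly(A) tail, and both begin at the same place. ADARs convert adenosine to inosine in double-stranded RNA. Full-length ADAR2 carries its own double-stranded RNA-binding domains and resides in the nucleus, whereas the MCP and Cas13b fusions hold the catalytic domain without them. The comparisons below therefore set side by side enzymes with and without those domains, and signals that send a fusion into or out of the nucleus.

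The listed sites sit in groups, and the 2 stretches printed here are those in which the sites lie closest together or reach the highest shares. Capitals mark the listed adenosines and all other bases are in lower case, 5′ to 3′ on the plus strand, with the sequence taken from the GENCODE transcripts (GRCh38). The MALAT1 stretch at chr11:65505472-65505719, near the 3′ end of the RNA, holds 12 listed sites in 248 bases, and the NEAT1 stretch at chr11:65422991-65423091, near its 5′ end, holds 11 listed sites in 101 bases.
MALAT1 3′ stretch: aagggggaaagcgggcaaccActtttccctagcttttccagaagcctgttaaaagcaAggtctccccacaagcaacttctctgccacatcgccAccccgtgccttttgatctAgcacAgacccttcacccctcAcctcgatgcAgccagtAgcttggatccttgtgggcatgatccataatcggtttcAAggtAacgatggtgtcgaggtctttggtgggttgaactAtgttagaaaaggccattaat
NEAT1 5′ stretch: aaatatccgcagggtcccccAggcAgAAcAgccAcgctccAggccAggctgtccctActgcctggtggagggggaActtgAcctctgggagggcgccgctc

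The next 6 windows give single sites that different enzymes edited, with 10 bases on either side and only the site itself in capitals. Their values follow in later paragraphs.
MALAT1 65501111: tagttggggtAatgaagtatt
MALAT1 65501276: tttttcccttAggtctgtcta
MALAT1 65503264: tggagttcttAaatatcaacc
MALAT1 65505699: gggttgaactAtgttagaaaa
NEAT1 65423498: tggtctgaggAgtgatgtgga
NEAT1 65425503: ccccttagcaActtaggtggt

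Both RNAs are annotated as single exons in the transcripts used to count bases, so every site is exonic and noncoding. In MALAT1 (chr11:65497762-65506469, plus strand, 8708 bases) the first listed site was base 3191 and the last was base 7938, and none lay in the first 3000 bases. The segment from base 7001 to base 8000 held 16 of the 33 sites. In NEAT1 (chr11:65422798-65445540, plus strand, 22743 bases) all 95 sites lay between bases 214 and 3318, and 46 lay in the first 1000 bases. The short NEAT1 transcript ends at 65426457, and none of the 95 sites lay in the 19083 bases beyond it that only the long transcript holds. The libraries were made from poly(A)-selected RNA, and its part in this distribution was not tested. Within NEAT1, 8, 6 and 3 sites also fall in the small annotated structure elements RF01955, RF01956 and RF01957.

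**Figure D1:**
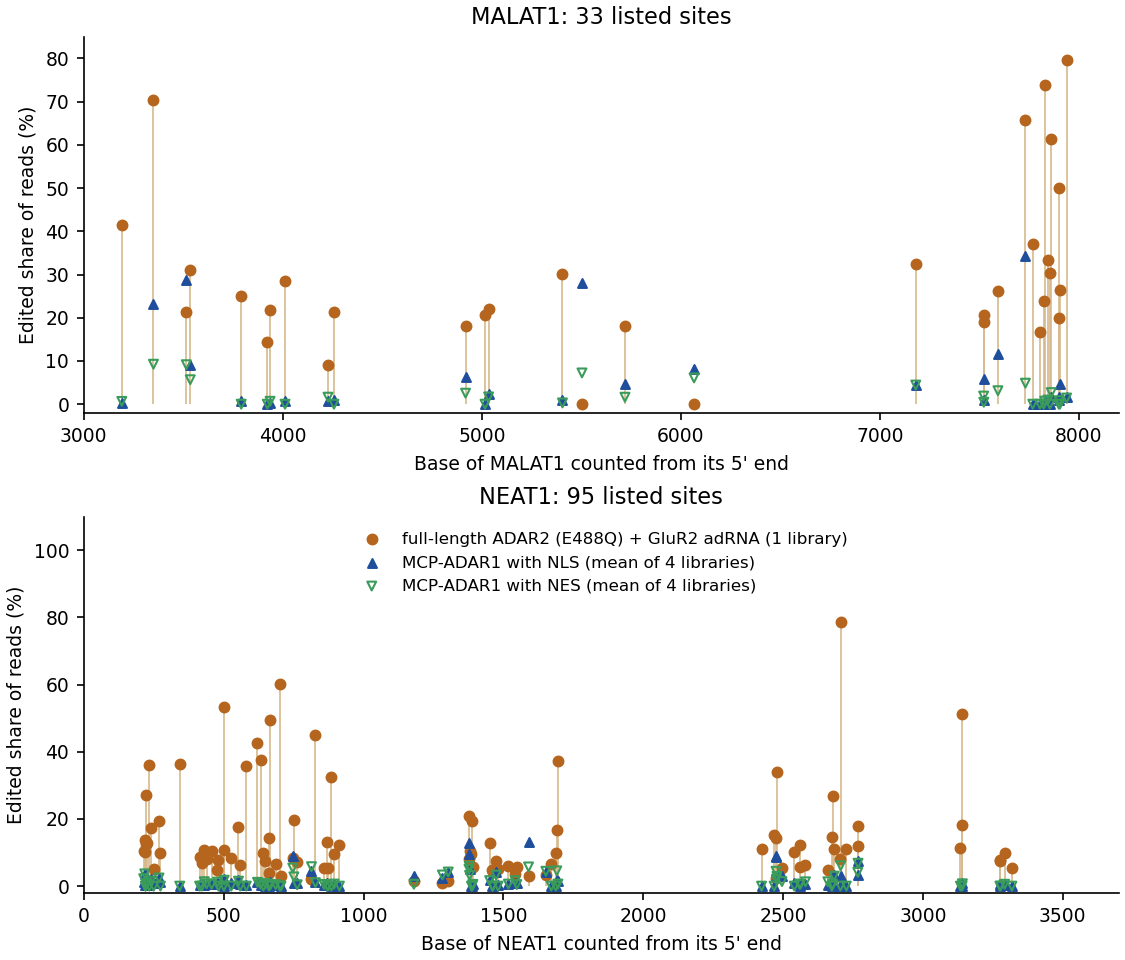
Edited share of reads (vertical axis, %) at each listed site along MALAT1 (top) and NEAT1 (bottom), by base from the 5′ end. Circles are the 1 library of full-length ADAR2 (E488Q) with the GluR2 adRNA, and triangles are means of 4 MCP-ADAR1 libraries with NLS (filled) or NES (open). Circles stand highest at most sites, filled triangles exceed the open ones at several MALAT1 sites, and site 5503 of MALAT1 shows triangles with the circle at 0.

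Every value below is the share of reads with the edited base, in percent. A site was called in a library if its share exceeded the untransfected mean and it had an adjusted p under 0.01 in the authors' deposited table. All 128 sites, and 382963 of the 382978 in the table, had such a p in at least 1 deaminase library, so a site is in the list because some library showed it. Counts of called sites therefore describe listed sites and not all adenosines of the RNAs. Read depth is unknown, so no share has a counting interval.

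Without a deaminase both RNAs were near 0. The mean untransfected share was 0.0806% over the MALAT1 sites and 0.125% over the NEAT1 sites, against 0.153% over all listed sites. The highest share of any member in any of the 7 control libraries was 3.57%, and no member was called in a control.

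Full-length ADAR2 edited both RNAs, and the MALAT1 mean was above the mean of all listed sites in each of the 4 libraries. Over the MALAT1 sites the mean share was 5.19% with ADAR2 alone, 12.7% with ADAR2 and the GluR2 adRNA, 10.4% with ADAR2 (E488Q) alone and 30.6% with ADAR2 (E488Q) and the GluR2 adRNA. All 4 values exceeded every MCP-ADAR2 library, which ranged from 0 to 1.17%. The same libraries averaged 1.18%, 2.15%, 2.78% and 8.03% over all listed sites, so MALAT1 stood at 4.39, 5.92, 3.75 and 3.81 times the mean of its own library. NEAT1 stood at 0.899%, 1.83%, 3.19% and 14.9%, or 0.761, 0.849, 1.15 and 1.86 times that mean. Its MCP-ADAR2 values ran from 0.222% to 0.711%, and the groups did not overlap for either RNA. The listing bears on all of these values. Of all listed sites 62.1% were called in MCP and in no full-length library, against 6.06% in MALAT1 and 7.37% in NEAT1. The ratios to the library mean and the lack of overlap therefore describe listed sites and follow in part from their choice.

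In the fit over the 12 ADAR2 libraries (limma with Benjamini-Hochberg adjustment over 9472 genes with at least 3 listed sites, on arcsine square roots of the mean share), both RNAs had higher means over their listed sites with full-length ADAR2 than with the MCP fusions. This direction was largely set by the listing, since 24 of 33 MALAT1 sites and 78 of 95 NEAT1 sites were called in full-length libraries and in no MCP library, so the fit describes listed sites and gives no independent support. MALAT1 went from 0.538% ± 0.490 (SD, n = 8 libraries) to 14.7% ± 11.0 (SD, n = 4 libraries), adjusted p = 0.000393 by limma. NEAT1 went from 0.457% ± 0.188 (SD, n = 8 libraries) to 5.20% ± 6.53 (SD, n = 4 libraries), adjusted p = 0.0159 by limma. Of all genes, 19.7% were called higher in this contrast, and MALAT1 ranked 151 of 9472 by the difference in points and NEAT1 ranked 1348. The NEAT1 call was lost on untransformed shares (adjusted p = 0.106) and with the 6 wild-type ADAR2 libraries only (adjusted p = 0.124), where MALAT1 kept an adjusted p of 0.0235.

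**Figure D2:**
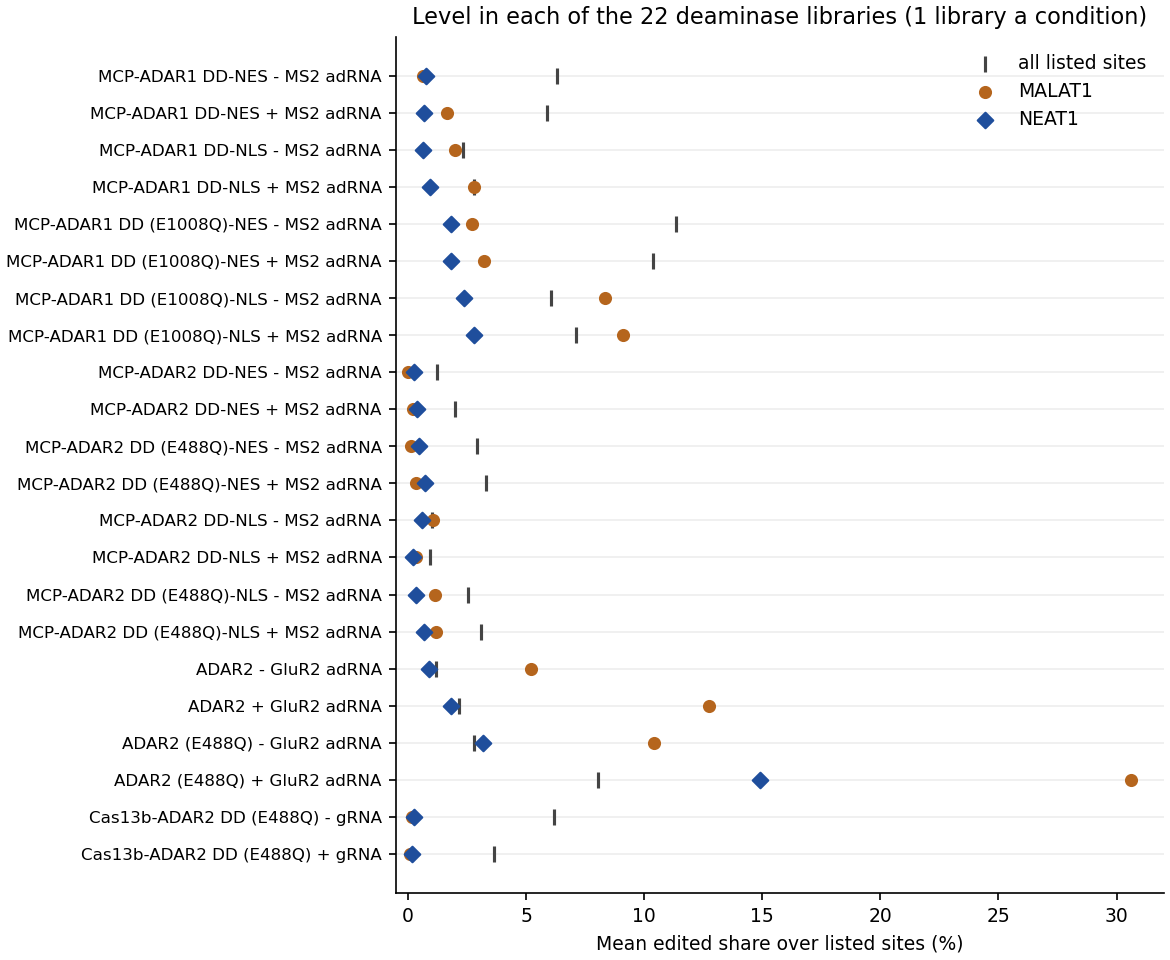
Mean edited share (%) over the 33 MALAT1 sites, the 95 NEAT1 sites and all 382978 listed sites in each of the 22 deaminase libraries, 1 library a condition. In the 4 full-length ADAR2 libraries MALAT1 lies to the right of the mark for all sites, and in both Cas13b libraries MALAT1 and NEAT1 lie near 0 while that mark is at 6.16% and 3.64%.

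Site by site the fit called 17 of 33 MALAT1 sites and 31 of 95 NEAT1 sites higher with full-length ADAR2 and no member lower, where 9.88% of all listed sites were called higher. The median difference was 9.03 points in MALAT1 and 2.71 points in NEAT1. On untransformed shares 7 member sites were called, where 11529 of all 382978 listed sites were called higher and 4100 lower. With wild-type libraries only, none of the members and none of all listed sites were called. The library of ADAR2 (E488Q) with the GluR2 adRNA also put most members in the list, so these counts do not stand apart from the choice of sites.

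The authors' calls show how much rests on that library. It called 31 of 33 MALAT1 sites and 88 of 95 NEAT1 sites, against 32.7% of all listed sites. ADAR2 (E488Q) without guide called 5 and 14 (6.72% of all sites), ADAR2 with guide 6 and 7 (4.85%), and ADAR2 without guide 1 and 2 (1.50%). At least 1 full-length library called 31 MALAT1 and 88 NEAT1 sites, or 93.9% and 92.6%, against 33.3% of all listed sites. For 24 MALAT1 sites and 78 NEAT1 sites no MCP library made a call beside the full-length one, and 15.7% of all listed sites were of that kind.

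The ADAR2 (E488Q) library with guide was the only deaminase library with a call at 19 MALAT1 sites and 65 NEAT1 sites, or 57.6% and 68.4%, against 11.6% of all listed sites. At these sites the other 3 full-length libraries had no call. Their mean share over the 19 MALAT1 sites was 2.17% for ADAR2, 4.34% for ADAR2 with guide and 5.37% for ADAR2 (E488Q), against a mean of 0.127% in the 8 MCP-ADAR2 libraries and 0.0616% untransfected. Over the 65 NEAT1 sites the 3 libraries gave 0.556%, 0.947% and 1.50%, against 0.301% and 0.119%. The mean of the 3 exceeded the MCP-ADAR2 mean at 17 of 19 MALAT1 sites (89.47%) and 48 of 65 NEAT1 sites (73.85%). It did so at 84.0% of the 44466 sites of the whole table listed in the same way. Over those 44466 sites the 3 libraries gave 1.62%, 3.02% and 4.95%, against 0.791% in the MCP-ADAR2 libraries and 0.155% untransfected. The excess was therefore common to sites listed in this way, and the NEAT1 levels lay below theirs. Having no call in the MCP libraries or in the other 3 full-length libraries was part of this choice of sites. That choice bears on the low MCP-ADAR2 means and on the shares of those 3 libraries.

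The 3′ stretch of MALAT1 printed above held the highest shares of full-length ADAR2. Over its 12 sites the mean was 12.9% with ADAR2, 31.5% with ADAR2 and guide, 17.9% with ADAR2 (E488Q) and 43.2% with ADAR2 (E488Q) and guide. The 4 MCP-ADAR2 libraries with NLS averaged 1.92% there, the 4 with NES 0.230%, both Cas13b libraries together 0.0508% and the untransfected runs 0.

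Site 65505699 (base 7938), the last capital of that stretch, had shares of 34.9%, 79.2%, 54.1% and 79.7% in these 4 full-length libraries in the same order. It was the member with the highest mean share over all deaminase libraries, and it was called in 6 of them. It was also the 1 member that an MCP-ADAR2 library called, against 15.6% of all listed sites: MCP-ADAR2 DD (E488Q)-NLS gave 21.4% without and 22.5% with the MS2 adRNA, and the NES forms 2.27% and 6.25%. The full-length mean of 62.0% exceeded the MCP-ADAR2 mean of 7.34% by 54.6 ± 19.3 points (SD, n = 4 matched sets), adjusted p = 0.000982 by limma. A rule that named this site asked for this direction in every matched pair, so the p gives no independent support.

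Its neighbours responded to full-length ADAR2 with little from the fusions. Site 65505589 (base 7828) gave 14.3%, 56.7%, 21.3% and 73.9% in the 4 full-length libraries and 0 in all 8 MCP-ADAR2 libraries. Site 65505661 (base 7900) gave 21.9%, 43.5%, 40.0% and 50.0%, and 0 to 7.41% in the MCP-ADAR2 libraries. Full-length and MCP-ADAR2 values did not overlap at either site, but rules that named both sites asked for this direction. The lack of overlap therefore gives no independent support.

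At most member sites E488Q gave the higher share, but not at all of them. With guide, ADAR2 (E488Q) exceeded ADAR2 at 29 MALAT1 sites and at all 95 NEAT1 sites, and ADAR2 exceeded ADAR2 (E488Q) at 2 MALAT1 sites, both in the 3′ stretch. Of all listed sites E488Q with guide was higher at 71.1% and lower at 8.51%. These member counts follow in part from the listing, which rested mostly on the E488Q library with guide. Without guide, E488Q was higher at 23 MALAT1 sites (69.7%) and 71 NEAT1 sites (74.7%), against 48.5% of all listed sites. It was lower without guide at 3 MALAT1 sites (9.09%) and 14 NEAT1 sites (14.7%), against 14.7% of all listed sites. Site 65505605 (base 7844) was at 20.0% and 72.1% with ADAR2 and at 6.12% and 33.3% with ADAR2 (E488Q), without and with guide. Site 65505584 (base 7823), named after its values were seen, was at 12.9% and 27.6% with ADAR2 and at 22.6% and 23.9% with ADAR2 (E488Q). With 1 library each, these differences have no replicate check.

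**Figure D3:**
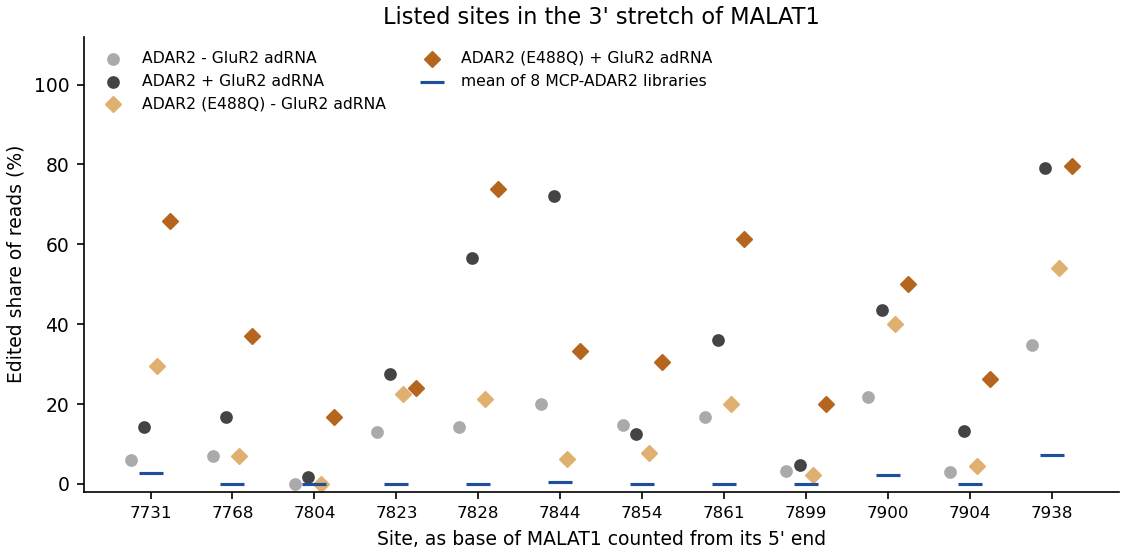
Edited share (%) at the 12 listed sites of the MALAT1 3′ stretch in each of the 4 full-length ADAR2 libraries, with the mean of 8 MCP-ADAR2 libraries as a bar. Site 7844 stands at 72.1% with ADAR2 and guide and at 33.3% with ADAR2 (E488Q) and guide, the reverse of the order at most other sites.

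RNAfold predicted a folded structure of -78.5 kcal/mol for these 248 bases with 150 of them paired. In it 7 of the 12 listed adenosines were paired, a share close to that of all bases of the stretch. Over the whole RNAs, the listed sites had no higher median pairing than other adenosines between the first and last listed site. In predictions over windows of 300 bases the median pairing probability was 0.39 at the MALAT1 sites against 0.46 at the 1358 other adenosines, and 0.47 at the NEAT1 sites against 0.47 at the 633 others. These are predictions from sequence alone.

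In NEAT1 the sites of full-length ADAR2 were spread over 3 stretches, and ADAR2 (E488Q) with guide stood above the other libraries in each. The first, bases 214 to 914 with 46 sites, had a mean of 17.3% in that library and 4.57% in ADAR2 (E488Q) without guide. The second, bases 1282 to 1695 with 22 sites, had 9.24% and 1.20%, and the third, bases 2423 to 2768 with 19 sites, had 15.9% and 3.22%. ADAR2 with guide gave 3.11%, 0.383% and 1.13% in the 3 stretches. The MCP-ADAR1 libraries with NLS averaged 1.02%, 2.92% and 2.27%, so their lowest stretch was the highest of full-length ADAR2. Of the 46, 22 and 19 sites, 42, 14 and 15 were called in full-length libraries and in no MCP library. These orders therefore follow in part from the listing.

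Single NEAT1 sites reached high shares in the full-length libraries. Site 65425503 (base 2706) was at 1.29% with ADAR2, 1.35% with ADAR2 and guide, 24.6% with ADAR2 (E488Q) and 78.6% with ADAR2 (E488Q) and guide, the highest share in NEAT1. Site 65423498 (base 701) was at 5.35%, 15.8%, 14.6% and 60.3%, with 0 to 2.47% in the MCP-ADAR2 libraries. It exceeded them by 23.3 ± 24.7 points (SD, n = 4 matched sets), adjusted p = 0.0193 by limma, a call that was lost on untransformed shares (adjusted p = 0.120) and with wild-type libraries only (adjusted p = 0.219). It was called in all 4 full-length libraries and no MCP library. Site 65423031 (base 234), in the 5′ stretch printed above, was at 12.3%, 19.7%, 7.18% and 36.0%, and was also called in all 4. The full-length and MCP-ADAR2 values did not overlap at 65423498 or 65423031, but rules that named both sites asked for this direction. Neither the lack of overlap nor the adjusted p therefore gives independent support.

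Full-length ADAR2 gave higher shares in both RNAs with its guide than without. With the GluR2 adRNA the ADAR2 (E488Q) share was higher at 31 of 33 MALAT1 sites and 95 of 95 NEAT1 sites, against 71.6% of all listed sites, but this library put most members in the list, so the count follows in part from the choice of sites. In the ADAR2 libraries, which called few members, the share was higher with guide at 19 MALAT1 sites and 55 NEAT1 sites (57.6% and 57.9%). It was lower at 3 and 20, against 40.9% higher and 16.7% lower of all listed sites. The mean over all listed sites also rose with the guide, from 2.78% to 8.03% and from 1.18% to 2.15%, and the part of that shift in the member values was not tested. In the MCP fusions the MS2 adRNA left no member site called (limma, adjusted p), with 1 site of each RNA at an unadjusted p under 0.05, and 0.000783% of all listed sites were called.

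Among the MCP fusions, the mean over listed sites was higher with the nuclear signal in MALAT1, while that of most genes was lower. The mean share over the MALAT1 sites was 1.11% ± 1.26 (SD, n = 8) with NES and 3.23% ± 3.47 (SD, n = 8) with NLS, and it was higher with NLS in 8 of 8 matched pairs. The difference of 2.13 points had an adjusted p of 0.00278 (limma over 9472 genes). The median gene differed by -2.47 points. With NLS, 0.190% of genes were called higher, 18 in number, and 7692 were called lower. The listing may have a part in both directions. ADAR1 (E1008Q) libraries with NLS called 7 and 8 MALAT1 sites, without and with guide, and those with NES called 2 and 3. Over all listed sites they called 23.54% and 28.87% with NLS, and 59.17% and 51.05% with NES. The part of the listing in these differences was not tested, and the fit describes listed sites.

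The 8 pairs differed in size. With ADAR1 the MALAT1 mean went from 0.633% (NES) to 2.00% (NLS) without guide and from 1.65% to 2.77% with guide. With ADAR1 (E1008Q) it went from 2.72% to 8.32% and from 3.21% to 9.11%. With ADAR2 it went from 0 to 1.06% and from 0.186% to 0.313%, and with ADAR2 (E488Q) from 0.124% to 1.12% and from 0.335% to 1.17%. The rise was past the threshold in the 8 ADAR1 libraries alone (adjusted p = 0.000832 by limma). In the 8 ADAR2 libraries alone it was not (adjusted p = 0.141), but there 0 of 9472 genes passed in either direction. The unadjusted p of MALAT1 in that fit was 0.00506 by limma, so the missing call does not show that the rise was absent with ADAR2. The difference between the enzymes in this effect was itself tested and did not pass (adjusted p = 0.214), nor did that between wild type and E-to-Q (adjusted p = 0.522).

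NEAT1 did not pass in the same comparison. Its mean was 0.862% ± 0.612 (SD, n = 8) with NES and 1.07% ± 0.959 (SD, n = 8) with NLS, higher in 4 of 8 pairs (adjusted p = 0.496 by limma), and the interval of the difference on untransformed shares ran from -0.31 to 0.723 points. Measured against the mean of each library over all listed sites, NEAT1 was higher with NLS in 8 of 8 pairs (adjusted p = 0.0136) and so was MALAT1 (adjusted p = 0.00437), where 6.17% of genes were called higher.

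**Figure D4:**
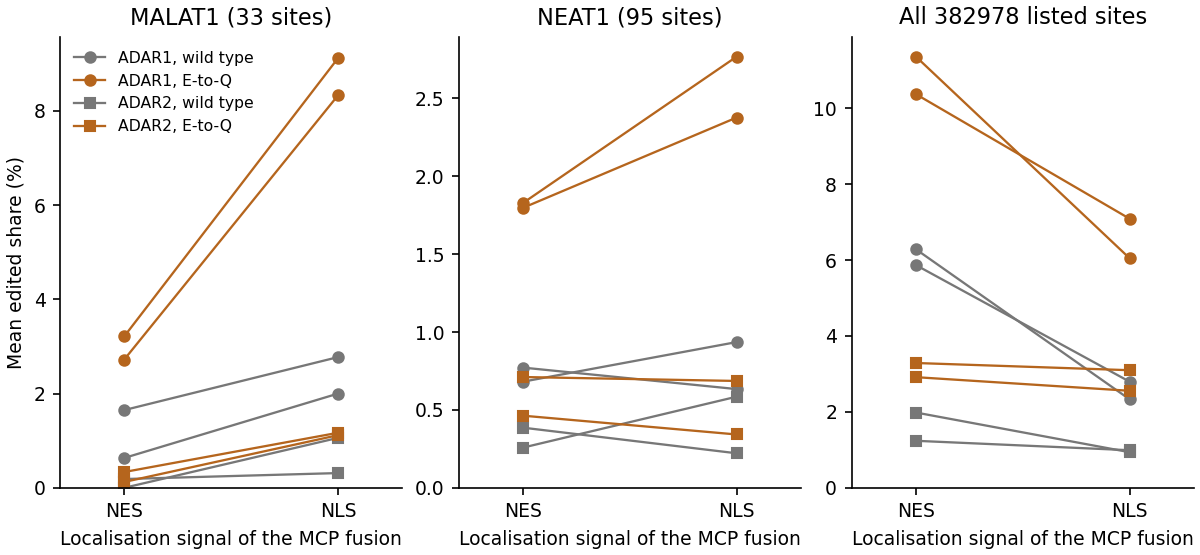
Mean edited share (%) of the MCP fusions with NES and NLS, 1 line for each of the 8 matched pairs (circles ADAR1, squares ADAR2, orange E-to-Q, grey wild type), for MALAT1, NEAT1 and all listed sites, each panel with its own axis. All 8 MALAT1 lines rise, 4 of 8 NEAT1 lines rise, and all 8 lines for all listed sites fall.

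Single sites differed in how far NLS and NES values lay apart. Site 65505492 (base 7731) was the 1 member called for localisation, higher with NLS by 17.5 ± 18.4 points (SD, n = 8 pairs), adjusted p = 0.0397 by limma, and no NEAT1 site was called. Of all listed sites 0.0397% were called higher with NLS and 3.76% lower. In the ADAR1 (E1008Q) libraries this site was at 11.1% and 8.33% with NES and at 53.4% and 56.7% with NLS. In the ADAR1 libraries it was at 0 in both with NES and at 7.14% and 19.4% with NLS.

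A pair of other MALAT1 sites had the same order in the ADAR1 (E1008Q) libraries without passing over all 16 libraries. Site 65501111 (base 3350) was at 13.9% and 16.7% with NES and at 40.6% and 42.0% with NLS. Site 65501276 (base 3515) was at 15.2% and 11.8% with NES and at 50.5% and 41.9% with NLS. Over all 16 libraries the adjusted p for localisation was 0.322 and 0.135 by limma. The NLS and NES values of this enzyme did not overlap at either site, but each side held few libraries. Both sites were named for high shares, and how many of all listed sites separate likewise was not counted. The lack of overlap therefore gives no support. Both were called in 5 deaminase libraries.

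The difference in points was smaller at sites that no MCP library had put in the list, where low MCP shares follow in part from that choice. Over the 24 MALAT1 sites called only in full-length libraries the MCP mean was 0.438% with NES and 0.835% with NLS, a difference of 0.397 ± 0.618 points (SD, n = 8 pairs) and higher in 6 of 8. Over the 78 such NEAT1 sites the difference was 0.026 ± 0.208 points (SD, n = 8 pairs), higher in 4 of 8. Over the 60094 such sites of the whole table it was -0.581 ± 0.508 points (SD, n = 8 pairs), higher in 1 of 8.

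Few genes shared the rise with the nuclear signal. Of 310 genes of long noncoding classes in GENCODE (lincRNA, antisense and related classes, without small RNAs and pseudogenes) with at least 10 listed sites, 3 were called higher with NLS and 229 lower, and by the arcsine difference MALAT1 stood at the top and NEAT1 was the eighth. At the other end was AL021707.5, which fell by 5.06 points (adjusted p = 0.00249 by limma). The other genes of these 310 called higher were XIST, the RNA that coats the inactive X chromosome, and TSIX, which overlaps it on the other strand, so their reads cannot be told apart if strand was not used. The 18 genes also include RN7SK, the nuclear RNA that holds P-TEFb inactive. It rose from 1.01% to 3.38% over 10 sites and is listed a second time as RF00100. A further entry is RF01881, annotated as misc_RNA, with 16 sites. Whether RF01881 lies within another of the 18 genes was not checked, so it may not be a separate RNA.

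Other long noncoding RNAs and the proteins of paraspeckles, taken as fixed lists, were called lower with NLS about as often as all genes, of which 81.2% were. Of 20 listed long noncoding RNAs 14 had at least 3 sites, and 12 of them were called lower with NLS and none higher, but against the library mean 1 was called lower and none higher (6.08% and 6.17% of all genes). The median difference of the 14, on the arcsine square root scale, was -0.0502 against -0.0547 over all genes. NORAD, which binds Pumilio proteins, fell by 1.13 points (adjusted p = 0.00355), but was higher without passing against the library mean (adjusted p = 0.324), and TUG1 differed by -0.427 points (adjusted p = 0.140). Of 30 listed paraspeckle proteins 28 were measured, and 22 were called lower and none higher, with a median of -0.0370, but against the library mean 10 were called higher and none lower. The mRNA of NONO fell by 0.798 points (adjusted p = 0.0146) but rose against the library mean (adjusted p = 0.0180), and that of SFPQ differed by -0.602 points (adjusted p = 0.102) and also rose against the library mean (adjusted p = 0.00437).

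With full-length ADAR2 the same lists held genes called in both directions, where 19.7% of all genes were called higher and 9.87% lower. Of the 14 long noncoding RNAs 3 were called higher and 4 lower, and against the library mean 3 higher and 6 lower. OIP5-AS1 rose from 4.19% to 27.8% (adjusted p = 0.000162), TUG1 from 0.775% to 5.78% (adjusted p = 0.0223) and NORAD from 0.761% to 4.06% (adjusted p = 0.00607), and ZFAS1, a snoRNA host, fell from 1.62% to 0.236% (adjusted p = 0.00238). Of the 28 paraspeckle protein genes 6 were called higher and 1 lower, and against the library mean 6 higher and 16 lower, where 20.1% of all genes were called higher and 43.6% lower. SFPQ rose from 0.883% to 2.90% (adjusted p = 0.0190) and RBM14 from 1.38% to 5.37% (adjusted p = 0.0103), both by limma over 9472 genes.

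The ADAR1 fusions edited both RNAs more than the ADAR2 fusions, as they did nearly all genes. The MALAT1 mean was 3.80% ± 3.14 (SD, n = 8) with ADAR1 and 0.538% ± 0.490 (SD, n = 8) with ADAR2, lower with ADAR2 in 8 of 8 pairs (adjusted p = 2.38e-06 by limma), but against the library mean the difference did not pass (adjusted p = 0.613). The NEAT1 mean was 1.47% ± 0.831 (SD, n = 8) with ADAR1 and 0.457% ± 0.188 (SD, n = 8) with ADAR2 (adjusted p = 0.000120), and against the library mean the direction turned, higher with ADAR2 (adjusted p = 0.00116). Of all genes 97.4% were called lower with ADAR2.

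Site by site 12 MALAT1 sites and 25 NEAT1 sites were called lower with ADAR2, where 66.0% of all listed sites were, and 1 MALAT1 site was called higher, where 2.60% were. That site was 65505699, at 1.59% with ADAR1 and 7.34% with ADAR2 (adjusted p = 0.00995 by limma). At 65501276 the ADAR1 mean of 18.9% fell to 0.347% with ADAR2, lower in 8 of 8 pairs (adjusted p = 9.4e-05 by limma). A rule that named this site asked for a pass in the fit with 1 sign in every pair, so the count adds no support. At least 1 MCP-ADAR1 library called 8 MALAT1 and 17 NEAT1 sites, or 24.2% and 17.9%, against 77.7% of all listed sites.

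Few member sites were called in an MCP library and in no full-length one. There were 2 of 33 in MALAT1 and 7 of 95 in NEAT1, or 6.06% and 7.37%, against 62.1% of all listed sites. No call does not mean no editing: the median full-length mean of the 7 NEAT1 sites was 0.834%, and that of the MALAT1 pair was 0. Site 65503264 (base 5503), named after its values were seen, was at 0 in all 4 full-length libraries. Its MCP-ADAR1 shares with NLS were 30.2% and 29.3% in the wild-type libraries and 27.1% and 25.3% in the E1008Q libraries. With NES they were 0 and 15.0% (wild type) and 3.92% and 10.0% (E1008Q), below all the NLS values. In NEAT1, site 65424387 (base 1590) was at 19.2% and 26.3% in ADAR1 (E1008Q) with NLS, and at 0 to 2.95% in the full-length libraries.

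Editing of both RNAs was higher with the activating change in the MCP fusions. The MALAT1 mean was 1.08% ± 0.985 (SD, n = 8) in wild-type and 3.26% ± 3.54 (SD, n = 8) in E-to-Q fusions, higher in 8 of 8 pairs (adjusted p = 0.00106 by limma), and that of NEAT1 was 0.559% ± 0.251 and 1.37% ± 0.937 (SD, n = 8 each; adjusted p = 0.00222), but against the library mean both turned lower, MALAT1 without passing (adjusted p = 0.681) and NEAT1 past the threshold (adjusted p = 0.0233). Of all genes 93.7% were called higher with E-to-Q. Over single sites 5 MALAT1 and 10 NEAT1 sites were called higher (39.7% of all sites) and 1 NEAT1 site lower (0.720% of all sites). NEAT1 site 65424387 was higher with E-to-Q in 8 of 8 pairs, at 10.2% against 1.76% (adjusted p = 0.00550 by limma). Passing the fit with 1 sign in every pair was a condition of a rule that named it, so the count adds no support.

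The Cas13b fusion left both RNAs near the control level. MALAT1 was at 0.162% without and 0.0859% with its gRNA, and NEAT1 at 0.259% and 0.174%, while all listed sites averaged 6.16% and 3.64%. No member was called in either library, against 30.3% of all listed sites, and the highest member share was 2.50%. Each is 1 library, so the difference has no replicate check.

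The bases beside the sites differed from those beside all adenosines in the same span of each RNA, a set that includes the listed sites. G followed 51.5% of MALAT1 sites and 52.6% of NEAT1 sites, against 27.3% of the 1391 MALAT1 adenosines and 34.2% of the 728 NEAT1 adenosines between the first and last site, and 58.7% of all listed exonic sites. G preceded 3.03% of MALAT1 sites and 15.8% of NEAT1 sites, against 22.6% and 30.1% of those adenosines and 12.2% of all listed exonic sites. C preceded 46.2% of the 78 NEAT1 sites called only in full-length libraries, and 38.4% of all listed exonic sites of that kind. These shares are descriptions of listed sites.

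The pattern of MALAT1 over the 22 deaminase libraries, as gene mean less library mean, was most like that of RNF26 (Pearson r = 0.986), PRR12 (0.978) and MEX3A (0.972) among 7245 genes with at least 10 listed sites. That of NEAT1 was most like SOX4 (0.996), MAT2A (0.991) and DDX17 (0.990). Between MALAT1 and NEAT1 r was 0.861. All genes share these libraries and their overall editing level, and the 22 points are conditions and not replicates.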

How the data were processed

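HEK 293T cells were harvested 60 hours after transfection, and libraries were made from 300 ng of RNA after poly(A) selection with paired reads of 100 bp (per the labels' protocols). STAR 2.6.0c, bcl2fastq 2.18.0.12, SAMtools and the build GRCh38.p12 are listed in the submitters' processing notes, with no settings. The authors deposited the fraction of reads with the edited base per site and library, and adjusted p-values. For the test behind them, its reference and the rule that listed the sites, the sources used here give nothing. 1 column of shares had no sample name and was left out, so the control was the mean of untransfected runs 2, 3 and 4. Depth per sample is unknown.

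Sites were placed in GENCODE 29 exons by position. Arcsine square roots of the shares were fitted in limma 3.58.1 under R 4.3.3, with an intensity trend and Benjamini-Hochberg adjustment over all sites or genes at 0.05. The 16 MCP libraries were fitted with enzyme, variant, localisation and guide, and the 12 ADAR2 libraries with carrier, variant and guide. With 1 library per condition, the spread is that between conditions after these terms, and it holds interactions. The code was tested on simulated data. Folding used ViennaRNA 2.7.2.

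The members and lists were chosen with earlier results of these data known. Sites named in the text had, per RNA, the highest mean share (6), the largest differences past the fit with 1 sign in every pair (3 per direction), the most calls (3), or calls in full-length libraries alone (4); others are said to be named after their values were seen. Alternatives were other scales, filters, thresholds and subsets of libraries. The values of 1 gene of the fixed lists are not reported here.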

Additional observations from a re-analysis of the deposited data

Results flagged for a closer look

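The change from wild type to the E-to-Q variant differed between the ADAR1 and ADAR2 fusions, by the interaction of enzyme and variant in the limma fit adjusted over all genes or sites. This held for the gene level of MALAT1 (adjusted p = 0.0198) and NEAT1 (adjusted p = 0.0217), with the larger change in ADAR1. Of all genes 25.7% passed this test, and 7.72% of all listed sites. Of the 128 member sites 8 passed, a share no higher than that of all listed sites. Those within the rule for named sites were MALAT1 65501111 (adjusted p = 0.00451), MALAT1 65501276 (adjusted p = 0.0197), MALAT1 65505492 (adjusted p = 0.0383) and NEAT1 65423544 (adjusted p = 0.0408). The others were MALAT1 65501988 (adjusted p = 0.00897), MALAT1 65505354 (adjusted p = 0.0106), NEAT1 65423670 (adjusted p = 0.00229) and NEAT1 65424449 (adjusted p = 0.0310). At 65423670 the MCP shares were only 0 to 2.27%. Its interaction of enzyme and localisation also passed (adjusted p = 0.00849 by limma), with the same estimate, where 5.85% of all listed sites did. At 65501111 all 8 MCP-ADAR2 shares were 0.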

How the results depend on the processing

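No paired analysis was possible because the conditions compared share no replicate numbers; their libraries, 1 each, were matched by construct alone. Relative to the mean over all listed sites, the MALAT1 enzyme difference no longer passed (adjusted p = 0.613), the NEAT1 localisation difference passed (0.0136), and the variant differences of MALAT1 (0.681) and NEAT1 (0.0233) and the NEAT1 enzyme difference (0.00116) turned direction. With the 8 ADAR2 libraries only, the MALAT1 localisation call was lost (0.141) and NEAT1 turned direction near 0 (0.997), but 0 of 9472 genes passed there. The NEAT1 full-length call was lost on untransformed shares (0.106) and with 6 wild-type libraries only (0.124). Member sites called for localisation, in either direction, numbered 1, and 7 with the 8 ADAR1 libraries only. In that ADAR1 fit 534 of all 382978 listed sites were called higher with NLS and 92487 lower. With the ADAR2, wild-type or E-to-Q libraries only, 0 members and 0 of all listed sites were called. On untransformed shares 0 members were called, and of all listed sites 1 higher and 2 lower. Member sites called for full-length ADAR2 numbered 48, and 7 on untransformed shares and 0 with wild-type libraries only, where 0 of all listed sites were called. An adjusted p under 0.001 left 16 of 26 member sites called in an MCP library. Subsets by enzyme or of wild-type ADAR2, and fits without 1 full-length library, were chosen after seeing the data. Depth is unknown, so low shares cannot be told from sampling.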
